A study of Mus musculus with 32 samples.

Results

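The 128 genes described here are long protein-coding genes whose mean normalised count was lower in Khk KO than in wild-type (WT) mice in liver, in ileum or in both, in tables where nearly all other long coding genes were higher in Khk KO. A gene was taken when its biotype was protein coding, its deposited length was at least 7000 bases, its mean normalised count over the 8 libraries of the organ was at least 50, and the mean of the 4 Khk KO libraries was below that of the 4 WT libraries. Genes of 23 name families (such as Slc, Cyp, Zfp and Col) and Scd1, Elovl5 and Elovl6 were left out. The rule gave 87 genes in liver and 73 in ileum, of 10055 genes in the 4 deposited tables, and 32 genes were taken in both organs. The direction of Khk KO against WT in these libraries chose the genes, so their differences in liver and ileum are descriptions, given without a test.

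Khk encodes ketohexokinase, the kinase through which most fructose enters metabolism. The study asked how fructose and ketohexokinase act on iron homeostasis, and compared male Khk KO mice with male WT mice by sequencing of polyadenylated RNA from 4 organs, the liver and the duodenal, jejunal and ileal parts of the small intestine. Every organ had 4 libraries per genotype, 32 in all. The labels give no age, diet, strain or construct of the deletion, nor whether a replicate number stands for 1 mouse across organs, or each replicate for a mouse of its own. The p-values below therefore measure the spread between these libraries, which may be technical.

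The deposited gene length counts every base that lies in any annotated exon of the gene, a total that GENCODE M21 gave to the base for 125 of the 128 genes. A gene with a short messenger RNA can therefore be long in such a table, if its annotation also holds transcripts that keep an intron or use distant ends. A main transcript was taken for each gene from the GENCODE M21 annotation of GRCm38, as the principal isoform or, failing that, the transcript with the longest coding sequence. Many of the 128 genes code for small proteins that cells make all the time, such as parts of the mitochondrial ribosome, which builds the membrane subunits of the respiratory chain, and enzymes of carbohydrate metabolism. Others code for cell-surface and signalling proteins, such as receptors that inhibit immune cells or sense lipid mediators.

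Khk itself was far lower in the Khk KO libraries of every organ, with no overlap, at 4.59% of the WT mean in duodenum, 6.65% in ileum, 9.25% in jejunum and 11.1% in liver. The deposited tables are not complete: they list genes whose unadjusted p in the authors' test was below 0.05, which left 6375 genes for liver, 5187 for ileum, 2413 for jejunum and 1567 for duodenum. Counted reads of listed genes ranged from 7505439 to 14331517 among liver libraries, 6531593 to 9149003 among ileal, 3053896 to 4325568 among jejunal and 1722220 to 3549978 among duodenal ones. General hepatocyte markers summed to 8550 to 12560 FPKM, the length-scaled level in the deposited tables, in the liver libraries and to 15.5 to 52.3 in the ileum libraries. Goblet cell markers summed to 2400 to 5605 FPKM in ileum and to 0.14 to 9.49 in liver. The sums cover listed markers only, so the sets differ between organs. They hold 5 of 9 hepatocyte markers in liver and 3 in ileum, and 4 of 11 goblet markers in ileum and 2 in liver.

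Mrpl17 and Mrpl33, a pair of proteins of the large subunit of the mitochondrial ribosome, show how a gene for a small protein can pass as long. Mrpl17 (chr7:105803206-105811099 in GRCm38, minus strand) had a deposited length of 7605 bases and a main transcript of 7300, of which 528 bases were coding. Mrpl33 (chr5:31596935-31664384, plus strand) had a deposited length of 7326 bases, a main transcript of 478 and a coding sequence of 195. Promoters of mitochondrial ribosomal genes, all of which were lower in Khk KO where listed, often hold sites for ETS-family factors. The promoters of this pair are shown because they hold a core of such sites. The windows, from RefSeq on GRCm38.p6, run 5′ to 3′ from 250 bases before to 50 after a start site, chr7:105811038-105811337 on the minus strand for Mrpl17 and chr5:31613701-31614000 on the plus strand for Mrpl33. Capitals mark CCGGAAG, a core that ETS-family factors are known to bind.
Mrpl17: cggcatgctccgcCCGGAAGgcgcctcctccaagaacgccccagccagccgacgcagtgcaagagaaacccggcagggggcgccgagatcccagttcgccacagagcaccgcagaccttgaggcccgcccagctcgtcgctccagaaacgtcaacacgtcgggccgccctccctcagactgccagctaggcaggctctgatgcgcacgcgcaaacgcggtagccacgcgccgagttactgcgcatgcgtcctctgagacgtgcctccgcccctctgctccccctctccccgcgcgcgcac
Mrpl33: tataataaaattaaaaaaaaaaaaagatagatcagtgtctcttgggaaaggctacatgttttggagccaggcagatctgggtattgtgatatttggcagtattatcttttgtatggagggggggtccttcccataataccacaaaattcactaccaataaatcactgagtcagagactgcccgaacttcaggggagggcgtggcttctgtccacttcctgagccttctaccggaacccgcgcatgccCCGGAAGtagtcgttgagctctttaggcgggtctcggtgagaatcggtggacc

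Both were shown because their window holds the match. Of the other genes of mitochondrial translation that were matched, Lars2 and Mrps10 had no match in their windows and Mrpl48 had it in 1 of its 4. The match began at position -237 in Mrpl17 and at position -3 in Mrpl33, counted from the start site. Searched on both strands, CCGGAAG was present in 28 of 143 windows of the 104 genes of the 128 that could be matched by symbol, which is 19.6%. It was present in 13.6% of the windows of long coding genes that were higher in Khk KO in either organ, in 11.6% of the windows of all protein-coding genes and in 8.86% of all windows of this length. Windows of 1 gene are not separate. Counted by gene, 22 of the 104 had a match, beside 231 of 1351 long coding genes that were higher and 2265 of 17492 protein-coding genes. A match is a string of letters in a window, and no binding was measured.

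The genes were a small minority of long coding genes in both organs. In liver 1431 long coding genes met every other clause of the rule, and 1344 of them were higher in Khk KO, so that 6.08% were lower. In ileum 1149 of 1222 were higher and 5.97% were lower. The Khk KO mean stood at a median of 70.8% of the WT mean in liver, with a range of 37.8% to 82.9%, and at 75.0% in ileum, with a range of 51.2% to 83.0%. Only 3 genes, all in liver, were below 50% of WT.

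The authors' deposited tables gave an adjusted p under 0.05 to 58 of the 87 genes in liver, where 11.4% of all genes they tested were called lower, and to 30 of the 73 in ileum, where 6.86% were. The edgeR quasi-likelihood refit called 30 lower in liver and 33 in ileum, where it called 7.49% and 6.36% of all genes lower. All 4 Khk KO libraries lay below all 4 WT libraries for 60 of the 87 genes in liver and 51 of the 73 in ileum, against 30.7% and 29.9% of the genes in those tables. Among listed genes that were lower, as all 128 are by the rule, this held for 1960 of 2933 in liver and 1551 of 2526 in ileum. Of the genes listed in the tables, to which all 128 belong, the authors called 32.6% lower in liver and 21.2% in ileum, and edgeR 21.4% and 19.6%. Of the listed genes that were lower, the authors called 2081 of 2933 in liver and 1100 of 2526 in ileum. The direction of the counts was set by the choice of the genes, so nothing is read from them. The number called by edgeR rested on single libraries. In liver it was 68 without WT library 1, 26 without WT library 3, 5 without Khk KO library 3, 3 without WT library 2 and 0 without any of the other 4. In ileum it was 61 without WT library 1 and 34 without WT library 4, and between 3 and 18 without any of the others.

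Levels varied between libraries of 1 genotype as well as between genotypes. The side of 0 on which each class of long genes lay was set by how the classes were formed, so the values describe which libraries were high or low within a genotype. The median of the 87 liver genes, as log2(normalised count + 1) minus the mean of the 8 libraries, was between -0.27 and -0.20 in the Khk KO libraries, and was 0.04, 0.25, 0.55 and 0.22 in WT libraries 1 to 4. Coding genes under 2000 bases had medians of 0.03, 0.37, 0.66 and 0.33 in the same WT libraries. The long genes that were higher in Khk KO had 0.12, -0.51, -0.85 and -0.41 there, so WT library 1 was the WT library nearest to Khk KO in all 3 classes. In ileum the 73 genes had medians of 0.43, 0.18, 0.14 and 0.08 in WT libraries 1 to 4, and short genes had 0.79, 0.20, 0.13 and -0.02, so WT library 1 was the one farthest from Khk KO in both classes. The long genes that were higher in Khk KO had -0.37, -0.43, -0.24 and -0.18, with WT library 2 the farthest. WT library 3 was the highest of the 8 for 69 of the 87 genes in liver, and WT library 1 for 46 of the 73 in ileum. Short genes and these long genes had their highest medians in the same WT library of each organ, and the part of that shared library pattern in the differences between genotypes was not tested.

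**Figure D1:**
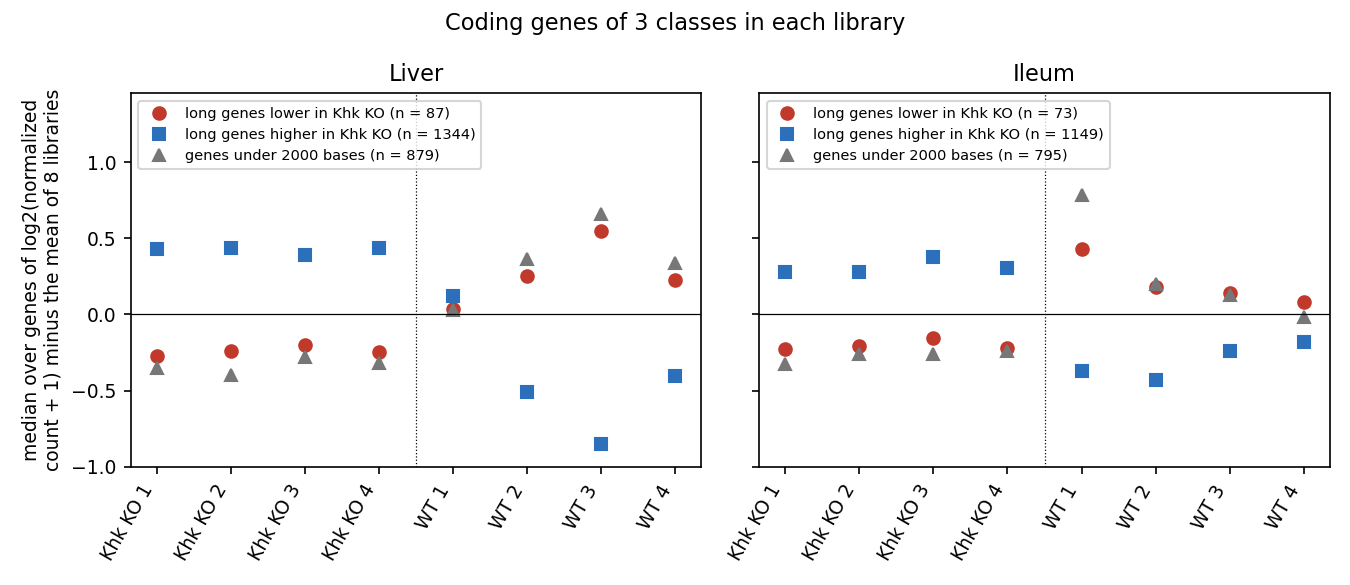
Median over genes of log2(normalised count + 1) minus the mean of the 8 libraries of the organ, for each library (x axis) of liver and ileum. Circles are the long coding genes lower in Khk KO, squares the long coding genes higher in Khk KO, triangles coding genes under 2000 bases, and circles and triangles lie on the same side of 0 in all libraries except WT 4 of ileum.

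The main annotated transcripts of the 128 genes were short for genes of this deposited length. The median main transcript was 3540 bases for the 87 liver genes and 6750 bases for the long genes that were higher, and 3406 against 6855 in ileum. The median deposited length differed as well, at 8098 against 10164 bases in liver and 8194 against 10428 in ileum. As a share of the deposited length the main transcript had a median of 40.4% against 64.3% in liver and 39.1% against 64.3% in ileum. The median coding sequence was 996 against 3281 bases in liver and 1161 against 3228 in ileum. A main transcript under 3000 bases belonged to 34 of the 87 liver genes (39.1%) and to 59 of the 1344 that were higher (4.39%), and in ileum to 32 of 73 (43.8%) and 53 of 1149 (4.61%). Bases found only in transcripts with a retained intron outnumbered all the rest of the deposited length for 36.8% of the liver genes and 9.15% of those that were higher, and for 38.4% and 8.88% in ileum. Over both organs 83 of the 128 genes had a coding sequence under 1500 bases, and 12 had a main transcript of at least 7000. No test is given for these counts, because genes are not replicates.

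**Figure D2:**
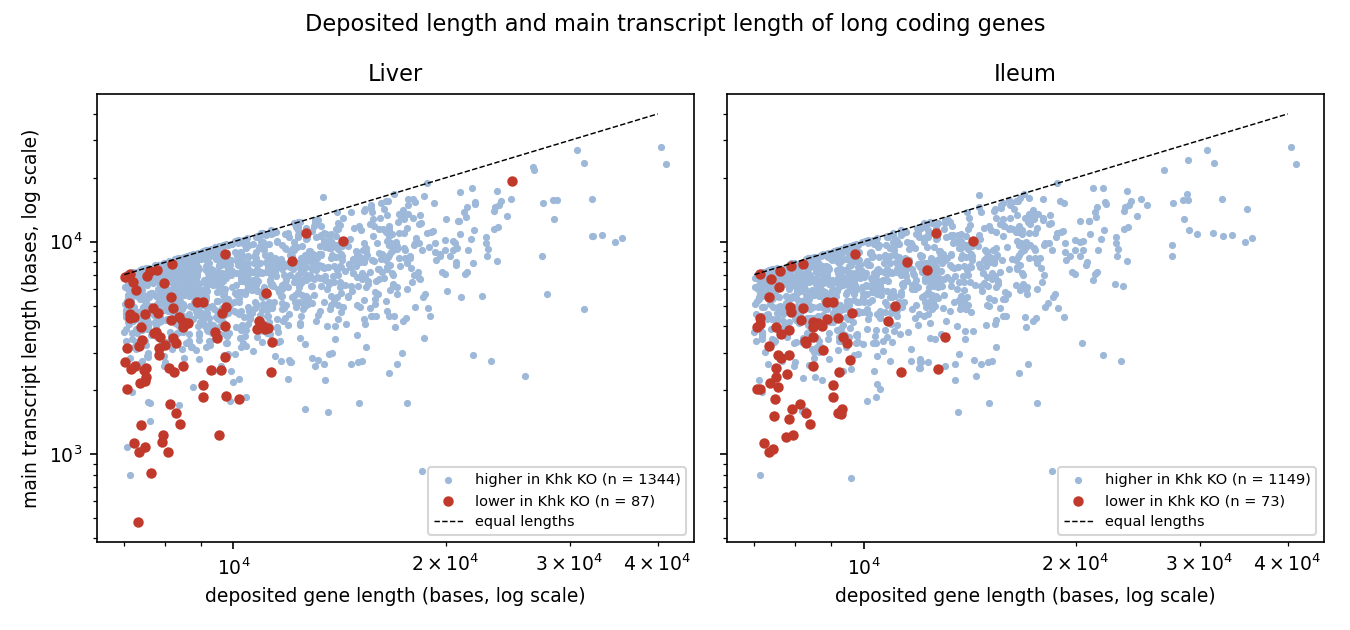
Deposited gene length (x axis, bases, log scale) against main transcript length (y axis, bases, log scale) of every long coding gene in the liver and ileum tables. Dark points are the 87 and 73 genes lower in Khk KO, most of which lie well below the dashed line of equal lengths, and light points are the genes higher in Khk KO.

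Among long coding genes, the share that was lower in Khk KO declined with the length of the main transcript in liver, ileum and jejunum. In liver it was 51.6% of 31 genes with a main transcript under 2000 bases, 21.3% of 174 genes from 2000 to 4000, 5.44% of 386 from 4000 to 6000, 1.76% of 454 from 6000 to 8000 and 1.30% of 386 from 8000 on. In ileum the shares in the same order were 59.3%, 20.1%, 5.57%, 1.84% and 1.10%. In jejunum 10 of 12 genes under 2000 bases and 1.02% of those from 8000 on were lower. In duodenum 8 of 10 genes under 2000 bases were lower, but 7 of 37 from 8000 on (18.9%) were lower as well.

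Within a range of short main transcripts, genes of greater deposited length were lower less often. With a main transcript of 2000 to 4000 bases, 70.5% of 969 listed coding genes of deposited length under 7000 were lower in liver, against 21.3% of those of deposited length at least 7000. In ileum the shares were 70.3% of 805 against 20.1%. For main transcripts under 2000 bases, 97.9% of the listed genes of deposited length under 7000 were lower in liver and 98.1% in ileum, against 51.6% and 59.3%. For main transcripts of 6000 to 8000 bases the shares were close, at 2.60% of 77 genes against 1.76% in liver and 2.63% of 76 against 1.84% in ileum. Lengths also vary within these ranges, and what that adds was not tested.

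**Figure D3:**
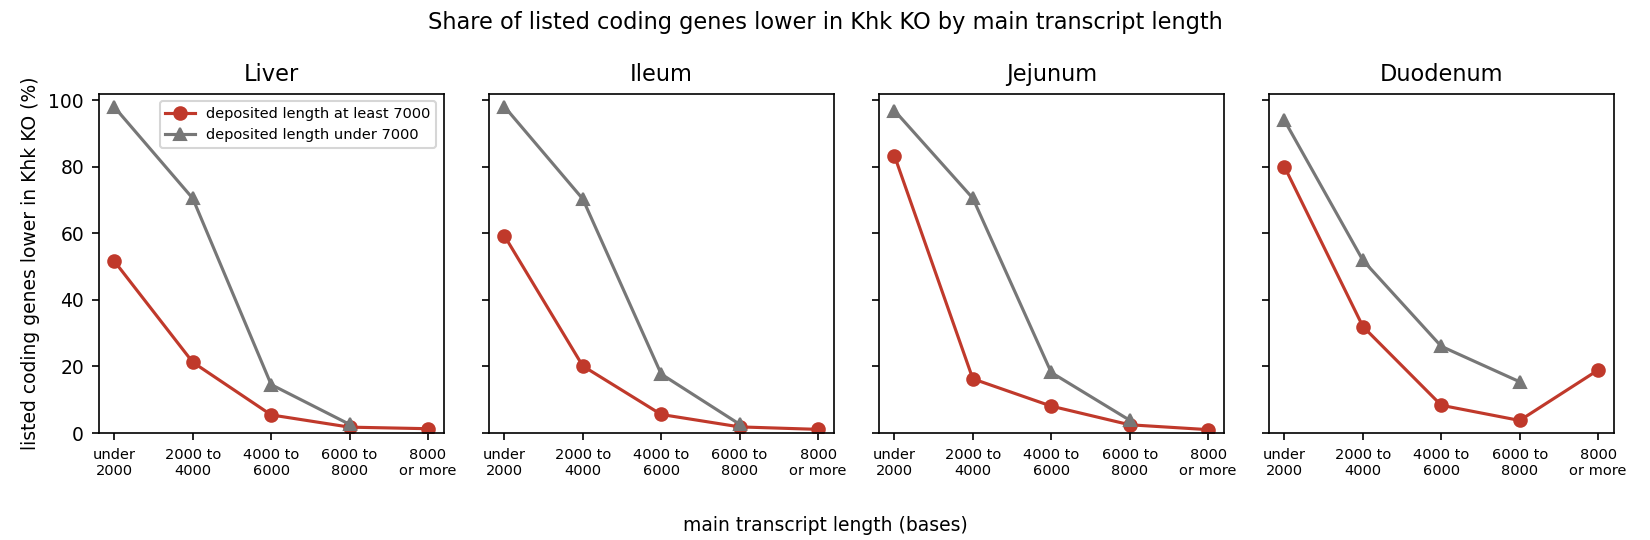
Percent of listed coding genes that were lower in Khk KO (y axis) by main transcript length in bases (x axis) in the 4 organs. Circles are genes of deposited length at least 7000 and triangles shorter ones, bins under 10 genes are not drawn, and in liver the circles run from 51.6% to 1.30%.

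On the log2 scale the median edgeR fold change, Khk KO over WT, was -0.47 for the 87 genes in liver, against 0.81 for the long genes that were higher and 0.33 for all genes in the table. In ileum it was -0.40, against 0.61 and -0.27. Coding genes under 2000 bases with a mean of at least 50 had medians of -0.69 in liver, where 865 of 879 were lower, and -0.58 in ileum, where 777 of 795 were. With each library's trend on deposited length taken out, the median of the long lower genes moved to -1.23 in liver and -0.91 in ileum. With the trend on main transcript length taken out instead, it was -0.74 and -0.51. The genes with a main transcript of at least 7000 bases did not differ much from the others in median, at -0.53 for 9 genes in liver against -0.46 for the 34 under 3000 bases.

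Genes of mitochondrial translation numbered 8 in liver, between -0.83 and -0.58 in log2 fold change, and 5 of them were taken in ileum, between -0.64 and -0.43. The groups by role used from here on were formed after the values were seen, so their counts only describe the genes. Mrpl33 had 186, 198, 243 and 193 normalised counts in the 4 Khk KO liver libraries and 268, 394, 478 and 345 in the 4 WT ones, a log2 fold change of -0.83 with a standard error (SE) of 0.19. No Khk KO library reached the lowest WT library. Bulk RNA cannot tell fewer cells of a type from less RNA per cell, for this gene or for any below.

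Mrpl15, another subunit of the large particle (chr1:4773206-4785739), had 842, 761, 732 and 742 in Khk KO liver and 1087, 1256, 1562 and 1174 in WT liver. In ileum it had 583, 672, 686 and 681 in Khk KO and 1473, 861, 798 and 711 in WT. The genotypes did not overlap in either organ, but in ileum WT library 1 was far above the other 3 WT libraries.

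Mrpl17, whose promoter is printed above, had 685, 715, 772 and 816 in Khk KO liver and 926, 1198, 1549 and 1190 in WT liver. In ileum the values were 484, 525, 522 and 433 in Khk KO and 1028, 748, 667 and 645 in WT. The log2 fold changes were -0.67 (SE 0.16) in liver and -0.64 (SE 0.13) in ileum, close to each other. Mrpl13 was at -0.68 (SE 0.18) and -0.51 (SE 0.15), again without overlap in either organ.

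Other listed subunits of the mitochondrial ribosome were lower, as listed short genes in general were. All 65 Mrpl and Mrps genes in the liver table were lower in Khk KO, and the authors called 55 of them. Of 998 listed coding genes under 2000 bases 93.4% were lower in liver and 76.0% were called lower by the authors, beside 11.4% of all genes tested. The 7 long ones had a median log2 fold change of -0.67 and the 58 others one of -0.68. In ileum all 52 were lower, with medians of -0.51 for the 5 long ones and -0.52 for the 47 others, and the authors called 19, where 95.1% of listed short genes were lower and 47.1% were called lower, beside 6.86% of all genes. In jejunum 21 of 21 listed and in duodenum 29 of 29 listed were lower, of which the authors called 1 and 0, beside 0.223% and 0.0961% of all genes. Of listed short genes 90.7% and 91.2% were lower in these organs. Subunits that no table lists have no value. These subunits were grouped by name after the values were seen.

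Lars2, which charges the mitochondrial transfer RNA for leucine, had 7243, 6595, 6024 and 9365 in Khk KO liver and 13780, 9466, 13612 and 8901 in WT liver. Khk KO library 4 lay above WT library 4, so the genotypes overlapped. A list of 49 genes of RNA processing and translation had 42 genes in the liver table, and Lars2 was the 1 of them that was lower.

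Among other mitochondrial proteins, Mpc2, a subunit of the carrier that brings pyruvate into mitochondria, had a main transcript of 1025 bases and 6240 bases found only in retained-intron transcripts. It had 2424, 2075, 2023 and 2328 in Khk KO liver and 2776, 2815, 3757 and 3155 in WT liver. In ileum it had 715, 873, 793 and 847 in Khk KO and 1800, 1063, 1010 and 884 in WT. No overlap was seen in either organ. Echs1, an enzyme of mitochondrial fatty acid oxidation, had log2 fold changes of -0.53 (SE 0.16) in liver and -0.35 (SE 0.09) in ileum. Pck2, the mitochondrial form of the enzyme that makes phosphoenolpyruvate, was one of the least abundant of the liver genes. It had 64.3, 70.3, 38.1 and 56.3 in Khk KO and 41.6, 156, 130 and 115 in WT, so WT library 1 lay inside the Khk KO range.

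Enzymes of the cytosol and the peroxisome made up 14 of the liver genes, 11 of them without overlap (60 of all 87), and 6 of the ileum genes, all without overlap (51 of all 73). Among all listed genes 30.7% in liver and 29.9% in ileum were lower without overlap. These were 1960 of the 2933 listed genes that were lower in liver and 1551 of the 2526 in ileum. Dera, which splits deoxyribose phosphate, had 798, 816, 903 and 690 in Khk KO liver and 1038, 1316, 1741 and 1220 in WT liver. In ileum it had 1007, 1167, 1214 and 1121 in Khk KO and 2097, 1407, 1362 and 1362 in WT. The Khk KO libraries were below the WT libraries in both organs. Tkt, a transketolase of the pentose phosphate pathway, stood at 66.1% of WT in liver and 73.2% in ileum. Akr1b3, the aldose reductase that starts the polyol route from glucose to fructose, was at 47.0% of WT in liver, but with 56.6, 115, 34.5 and 31.8 in Khk KO and 54.7, 134, 200 and 119 in WT the libraries overlapped widely. In ileum its 510 to 579 counts in Khk KO lay below the 637 to 731 in WT.

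Mthfs, which returns a storage form of folate to use, had a main transcript of 816 bases and values of 71.0, 72.3, 63.1 and 68.1 in Khk KO liver and 76.6, 124, 181 and 104 in WT liver. Ebpl, a relative of the sterol isomerase Ebp, had a main transcript of 10092 bases with only 618 of them coding. It had 777, 879, 926 and 681 in Khk KO liver against 991, 1191, 1235 and 1181 in WT, and 176, 155, 170 and 137 in Khk KO ileum against 334, 279, 238 and 222 in WT. The gap between genotypes was wider in ileum, at 59.4% of WT, than in liver, at 71.0%, a difference between organs that was not tested. Faah, which breaks down anandamide and related lipid amides, was taken in ileum only, at 68.1% of WT (693, 910, 1046 and 748 in Khk KO, 1456, 1189, 1070 and 1275 in WT).

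In the endoplasmic reticulum group, Erp29, a chaperone of secretory proteins, had 543, 396, 557 and 471 in Khk KO liver and 706, 761, 913 and 753 in WT liver. In ileum it had 895, 998, 898 and 1039 in Khk KO and 2162, 1387, 1234 and 1095 in WT. About 24.4% of its exon bases also lie in exons of Naa25 on the other strand. The labels name both a stranded and an unstranded library chemistry, so reads of the 2 genes cannot be told apart. Such an overlap of over 10% was present for 15 of the 128 genes, for 14 of them with a gene on the opposite strand, and was largest for Pstk, which shares 58.8% with Ikzf5.

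Among vesicle and lysosome genes, Snx10, a sorting nexin, had 491, 485, 464 and 495 in Khk KO liver and 647, 757, 1286 and 675 in WT liver. Chid1, a lysosomal protein with a chitinase-like domain, had 338, 303, 421 and 375 in Khk KO and 443, 582, 904 and 597 in WT. For both genes WT library 3 was the highest and the genotypes did not overlap. Bcl7c, a subunit of SWI/SNF chromatin remodellers, had 152, 131, 82.1 and 107 in Khk KO liver and 171, 232, 207 and 219 in WT liver, a log2 fold change of -0.78 (SE 0.21). In ileum its log2 fold change was -0.42 (SE 0.16). Memo1, a cytosolic protein involved in cell motility, was at 59.7% of WT in liver, and Tmem143, a mitochondrial membrane protein, at 71.5% in liver and 68.1% in ileum.

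Receptors and signalling proteins, 14 genes in liver and 5 in ileum, had median log2 fold changes of -0.46 and -0.58. Rgs3, which turns off G protein signals, was the lowest in liver at 37.8% of WT, with 113, 138, 69.0 and 79.0 in Khk KO and 165, 197, 433 and 259 in WT. Nlrp12, a regulator of inflammatory signalling, had 532, 526, 600 and 499 in Khk KO and 920, 1032, 1332 and 886 in WT. Its highest Khk KO library, at 600, was well below its lowest WT library, at 886, and its main transcript of 6928 bases was longer than the liver median of 3540. Lair1, an inhibitory receptor of immune cells, had 70.0, 32.1, 20.2 and 30.9 in Khk KO and 37.2, 104, 104 and 109 in WT. WT library 1 lay within the Khk KO range for Lair1, as it did for Pck2. Of 12 markers of Kupffer cells and other macrophages, 7 were in the liver table and 6 of those were lower in Khk KO. Their summed level ran from 187 to 269 FPKM in Khk KO and from 231 to 627 in WT. None of the 7 was a long coding gene, and 93.4% of listed coding genes under 2000 bases were lower in liver. Of 9 listed endothelial markers, 6 of them long coding genes, 7 were higher in Khk KO and 2 lower. The part of the macrophage marker level in the values of Lair1 and Nlrp12 was not tested.

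S1pr2, a receptor for sphingosine phosphate and bile acids, had 82.5, 96.4, 80.9 and 92.7 in Khk KO liver and 201, 160, 96.8 and 139 in WT. Adgrv1, a very large adhesion receptor, had the longest main transcript of the 128 genes, 19338 bases, of which 18894 were coding. It had 43.2, 74.3, 88.1 and 57.2 in Khk KO liver and 187, 92.0, 99.8 and 102 in WT liver. The genotypes did not overlap for either gene, and for Adgrv1 WT library 1 was the high one, the opposite of Lair1. In jejunum Adgrv1 was low, with 24.0, 14.8, 12.9 and 19.9 in Khk KO and 0, 8.79, 11.1 and 2.08 in WT, so there it was higher in Khk KO (edgeR adjusted p = 0.325).

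In ileum, cell structure, mucus and brush border made up 7 of the genes, 4 of them without overlap, against 51 of all 73 and 29.9% of all listed genes. Among the 2526 listed genes that were lower in ileum, 1551 showed no overlap. Ppfia3, a scaffold protein of the liprin family, had 931, 871, 1042 and 911 in Khk KO and 2457, 1650, 1388 and 1136 in WT. Espn, which bundles actin in microvilli, had 3142, 3199, 4290 and 3585 in Khk KO and 7898, 5714, 6043 and 4763 in WT. Neither gene showed overlap, with Ppfia3 at 56.6% of WT and Espn at 58.2%. Mme, the neutral endopeptidase of the brush border, was at 57.2% of WT in ileum, where its libraries overlapped, with 529, 774, 1133 and 613 in Khk KO and 1399, 997, 1364 and 1574 in WT. Of 25 brush border and enterocyte markers 8 were in the ileum table, and 7 of them were lower. Their summed level was 2769 to 3609 FPKM in Khk KO and 3858 to 5582 in WT, and its part in the values of Espn was not tested. Only 1 of the 8 was a long coding gene, and 95.1% of listed coding genes under 2000 bases were lower in ileum.

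Ccl25, the chemokine that draws lymphocytes to the small intestine, had 4729, 4671, 5484 and 4204 in Khk KO ileum and 10716, 6339, 6285 and 5692 in WT ileum. Muc2, the main secreted mucin of goblet cells, was the most abundant of the ileum genes, with 45948, 46308, 46445 and 63282 in Khk KO and 58754, 60878, 69612 and 72953 in WT. Khk KO library 4 reached into the WT range of Muc2. The main transcript of Muc2 in this annotation, 2032 bases, is short for so large a protein, so its length here is that of a partial model. All 4 goblet cell markers in the ileum table were lower, Muc2 among them, and summed to 2400 to 3378 FPKM in Khk KO and 3390 to 5605 in WT. Muc2 was the only long coding gene among the 4. The rule set its direction, and the sum includes it. Of listed coding genes under 2000 bases 95.1% were lower in ileum.

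Pnkd, named for a movement disorder, had 341, 298, 310 and 293 in Khk KO ileum and 771, 448, 396 and 395 in WT ileum, and its libraries overlapped in liver. Trpm4, a calcium-activated cation channel, had 3908, 3868, 4140 and 3972 in Khk KO ileum and 3923, 6469, 5640 and 5159 in WT, with WT library 1 inside the Khk KO range. Skap1, an adaptor of T cells, was scarce in ileum, with 62.1, 46.8, 67.3 and 35.7 in Khk KO and 55.9, 76.4, 89.1 and 120 in WT. All 3 T and natural killer cell markers in the ileum table were lower, Skap1 included, with a summed level of 1.70 to 5.62 FPKM in Khk KO and 4.19 to 7.96 in WT. Skap1 was the only long coding gene among the 3. Its direction was set by the rule, and the sum includes it. In ileum 95.1% of listed coding genes under 2000 bases were lower.

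The study's question concerned iron. Fbxl5 and Ciapin1, which have known parts in iron handling, were picked out after their values were seen, with no list of iron genes behind the choice. Fbxl5, the iron-sensing component of a ubiquitin ligase, had 384, 503, 472 and 438 in Khk KO liver and 529, 480, 704 and 579 in WT liver. Ciapin1, which works in the assembly of cytosolic iron-sulfur proteins, had 414, 413, 333 and 383 in Khk KO ileum and 532, 591, 458 and 476 in WT ileum. The genotypes overlapped for Fbxl5 and not for Ciapin1.

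No gene lay near the limit on direction, while genes on both sides of the limits on length and level were lower in Khk KO. By length the last gene inside was Shq1 in liver at 7007 bases and 67.1% of WT, and the next outside was Lrwd1 at 6943 bases and 68.5%. In ileum they were Oraov1 at 7061 bases and 75.5%, and Ucp2 at 6989 bases and 69.8%. By level the last inside were Lair1 in liver, with a mean of 63.4 at 43.3% of WT, and Skap1 in ileum, with a mean of 69.2 at 62.0%. March1, with a mean of 39.6 at 57.1% of WT, was outside in liver, and Mthfs, with a mean of 39.3 at 38.0%, was outside in ileum. By direction the highest ratios inside were 82.9% for H13 in liver and 83.0% for Cyhr1 in ileum. The lowest outside were 117% for Mia2 and 117% for Hnrnpu, because the tables hold no gene with a smaller difference.

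The 32 genes taken in both organs make up 36.8% of the liver list and 43.8% of the ileum list. Their median log2 fold changes were -0.46 in liver and -0.43 in ileum. The difference was larger in liver for 21 of them and larger in ileum for 11, and 19 showed no overlap between genotypes in both organs. Among listed genes that were lower in 1 organ, 1960 of 2933 in liver and 1551 of 2526 in ileum showed no overlap there. The share over all genes lower in both organs was not counted, so nothing is read from the 19. A coding sequence under 1500 bases belonged to 26 of the 32. The bars of 1 SE around the fold changes of the organs overlapped for 29 of the 32. Akr1b3 had the widest gap, at -1.05 (SE 0.46) in liver and -0.34 (SE 0.11) in ileum, with overlapping libraries in liver. Differences between organs were not tested.

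**Figure D4:**
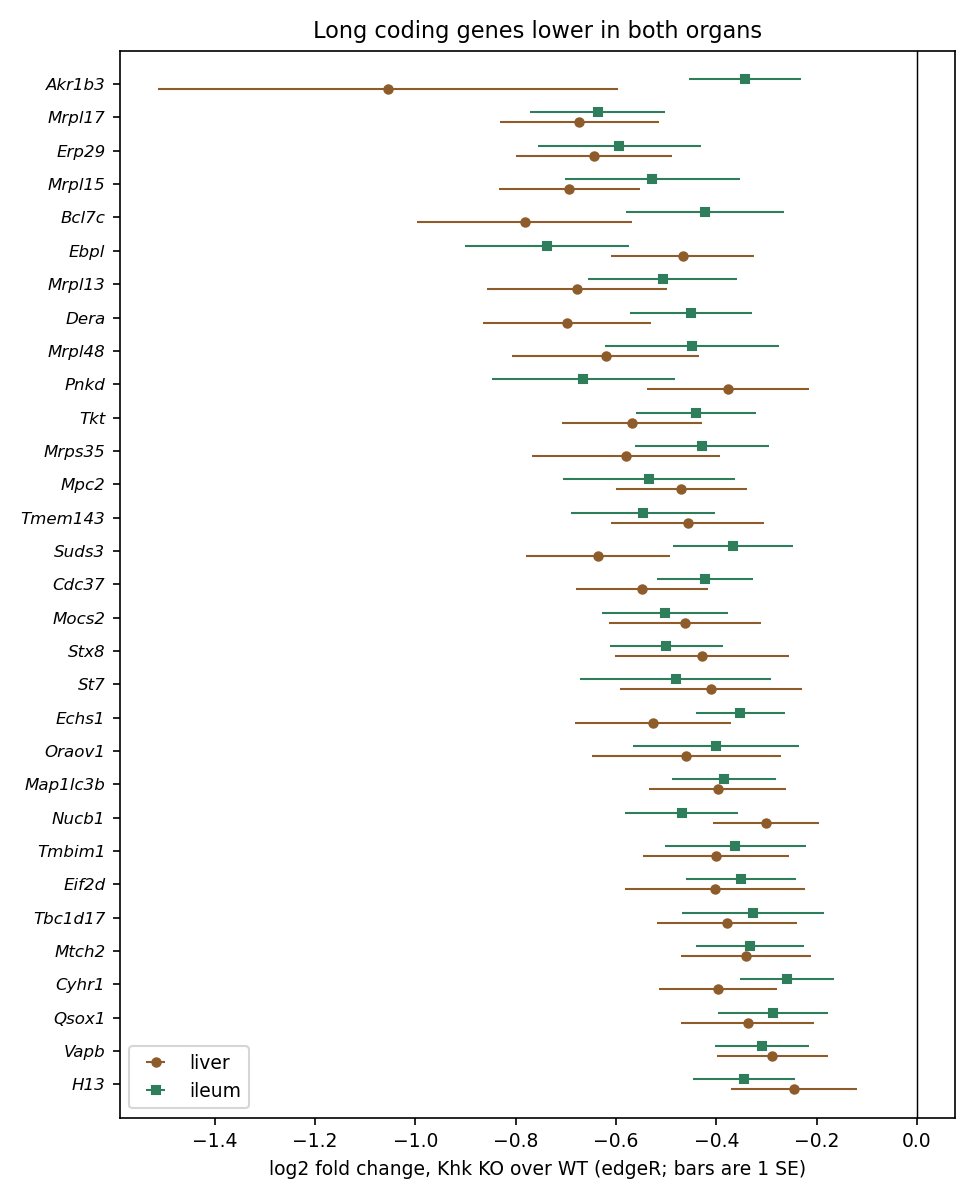
Fold change from edgeR on the log2 scale, negative where Khk KO was lower (x axis), for 31 of the 32 genes taken in both organs (y axis), with circles for liver, squares for ileum and bars of 1 SE. The points of both organs lie left of 0 for all genes drawn, and Akr1b3 has the lowest liver value, -1.05, and the widest bar.

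Values in an organ that did not choose a gene were not used by its choice. A gene has a value there only if the authors' unadjusted p in that organ was below 0.05. The calls below are therefore no independent test, and the organs may share mice. Of the 87 genes chosen in liver, 33 were listed in the ileum table and all 33 were lower in Khk KO there, 27 of them without overlap. The other 54 had no value in ileum. Of the 33, the rule took 32 in ileum as well. Of all 5187 genes listed in ileum, 48.7% were lower and 29.9% were lower without overlap. Among the 2526 that were lower, 1551 showed no overlap. The authors called 15 and edgeR called 18 of the 33 lower in ileum, where 6.86% and 6.36% of all genes were called lower. The 33 are listed genes, and of all genes listed in ileum, lower or higher, the authors called 21.2% and edgeR 19.6% lower. Of the 2526 listed genes that were lower in ileum the authors called 1100. Of listed coding genes under 2000 bases they called 47.1% lower. Of the 1344 long genes that were higher in liver, 836 were listed in ileum and 5 were lower. Mthfs, which fell just short of the level required in ileum, had 18.4, 16.2, 26.0 and 26.0 in Khk KO and 37.3, 72.8, 61.1 and 56.9 in WT there, a log2 fold change of -1.42 (SE 0.33, edgeR adjusted p = 0.0221). The number called by edgeR in ileum was between 2 and 28 when 1 library was left out. It was 28 without WT library 1 and 22 without WT library 4, and 12 or fewer without any of the others. All 33 stayed below WT in their means each time, but directions could hardly change, because the tables list no gene with a small difference. WT library 1 was the highest of the 8 for 25 of the 33, and without it the median ratio moved from 73.2% to 79.1% of WT.

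Of the 73 genes chosen in ileum, 38 were listed in liver, 32 of them lower and 6 higher. Among all genes listed in liver 46.0% were lower. Of the 38, the authors called 23 lower and 6 higher, and edgeR called 13 lower and 4 higher. Of all genes in liver the authors called 11.4% lower and 12.5% higher, and edgeR 7.49% and 7.19%. The 38 are listed genes, and of all genes listed in liver the authors called 32.6% and edgeR 21.4% lower. Of the 2933 listed genes that were lower in liver the authors called 2081. Left-out libraries moved the 13 to between 0 and 26, with 26 without WT library 1, 12 without WT library 3, and 3 or fewer without any of the others. The 6 that were higher in liver were 9130230L23Rik, Ccl25, Mme, Muc2, Nfix and Usp37. Muc2 was nearly absent from liver, with 11.5, 0, 3.57 and 8.18 in Khk KO and 1.09, 0, 0 and 0 in WT. It was not fitted by edgeR there. The genotypes overlapped in liver for Muc2 and Mme. Usp37, a deubiquitinase, had 1209, 1118, 1234 and 1101 in Khk KO ileum against 1793, 1357, 1679 and 1437 in WT. In liver it had 154, 179, 143 and 220 in Khk KO against 112, 53.0, 114 and 68.3 in WT, the opposite order without overlap in either organ.

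In jejunum 19 of the 128 genes were listed, 15 of them lower and 4 higher, and in duodenum 14 were listed, all lower. Among all listed genes 46.0% were lower in jejunum and 57.9% in duodenum. EdgeR called 0 of the 19 and 0 of the 14. At an unadjusted p under 0.05 it had 14 lower in jejunum and 2 in duodenum, counts that partly restate the limit by which the tables list genes, and the authors called 1 lower in each, beside 0.223% and 0.0961% of all genes. For edgeR the share of all genes called lower was 0.0101% in jejunum and 0.00640% in duodenum. WT library 1 was the highest of the 8 for 12 of the 15 lower genes in jejunum and 13 of the 14 in duodenum. Without it the median ratio moved from 72.2% to 81.9% of WT in jejunum and from 71.5% to 83.8% in duodenum. All 15 and all 14 stayed lower, which the listing at an unadjusted p under 0.05 made likely. The median log2 fold change was -0.45 over the 19 in jejunum and -0.30 over the 13 that edgeR fitted in duodenum. With each library's trend on deposited length taken out it was -0.82 and -0.75, with 15 and 13 lower. With the trend on main transcript length taken out instead, a setting chosen after seeing the data, it was -0.07 and -0.20, with 12 and 10 lower. The edgeR fit without trend removal scaled libraries on the listed genes alone, while the trend settings used the authors' size factors. In duodenum the authors' log2 fold changes were lower than those of that edgeR fit for all 13. They were -0.34 against -0.19 for Tkt and -0.70 against -0.50 for Bcl7c. Ebpl, Tkt, Mpc2 and Bcl7c were among the genes lower in all 4 tables.

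Lars2 was the gene called by the authors in duodenum, with 4133, 4362, 4687 and 5554 in Khk KO and 10614, 7407, 7796 and 6739 in WT. All Khk KO libraries were below all WT libraries. The authors' log2 fold change was -0.80 with an adjusted p of 0.00327. EdgeR, scaled on the listed genes alone, gave a log2 fold change of -0.63 (SE 0.12, adjusted p = 0.798). Without WT library 1 the Khk KO mean moved from 57.5% to 64.0% of WT.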

How the data were processed

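Male Khk KO and WT mice were compared by sequencing of polyadenylated RNA in 4 organs, with 4 libraries per group. Reads were aligned with HISAT2 2.0.5 to GRCm38 (mm10), per the submitters' processing notes, and the counting tool, annotation, strand setting and test of the authors are not given in the sources used here. The deposited table of each organ holds, per the file headers, whole-number read counts, normalised counts and FPKM of each library. The normalised counts, a signal on a linear scale, were found from the values to be the authors' counts divided by 1 size factor per library. The tables also hold the authors' log2 fold changes and their p-values, raw and adjusted. FPKM as deposited divides by the gene length in the table and was used here only for summed marker levels.

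Counts were refitted organ by organ with the quasi-likelihood test of edgeR 4.0.16 (R 4.3.3) after trimmed mean scaling and its filter on low counts, without covariates. The scaling used the listed genes alone. Fits with a length trend removed used the authors' size factors instead. Adjusted p-values (Benjamini-Hochberg, threshold 0.05) used the same gene totals as the authors' own adjustment, which were 18225 for liver, 16034 for ileum, 9881 for jejunum and 15615 for duodenum. A standard error is the size of the log2 fold change divided by the square root of the F statistic. The scripts were tested on simulated data. DESeq2 1.42.0, other scalings and filters, a replicate block, left-out libraries, other limits of the rule and the removal of a length trend (lowess, span 0.5, fitted to genes whose mean was 10 or more) were tried as alternatives, and the trend on main transcript length was chosen after seeing the data. Samples with the same replicate number did not vary together, so no pairing was used.

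The genes and the lists were chosen with earlier results of these data known. Genes to describe, 39 in all, were taken by rule, and 1 of them is not reported here: the 12 lowest ratios without overlap in each organ, up to 10 genes found in both, up to 3 per list, genes the authors called in jejunum or duodenum, and those next to a limit. Tkt, Echs1, Fbxl5, Ciapin1, Mme, Usp37 and Nfix lie outside that rule and were named after their values were seen. Promoter windows of RefSeq on GRCm38.p6 were matched by symbol for 104 of the 128 genes.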

Additional observations from a re-analysis of the deposited data

Results flagged for a closer look

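A single library far from the other 3 of its group was looked for in 110 groups of 4 normalised counts, where chance marks about 1 in 20. It was found for 8 genes. In ileum WT library 1 was the high one for Ccl25 at 10716 (others 5692 to 6339), for Dera at 2097 (others 1362 to 1407) and for Pnkd at 771 (others 395 to 448). In liver WT library 1 was high for Adgrv1 at 187 (others 92.0 to 102) and low for Lair1 at 37.2 (others 104 to 109). Memo1 had 808 in WT library 3 of liver (others 509 to 552). Among Khk KO libraries of ileum, Mrpl15 had 583 in library 1 (others 672 to 686) and Muc2 had 63282 in library 4 (others 45948 to 46445).

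For 3 genes all 4 Khk KO libraries were above all 4 WT libraries in liver and below them in ileum, a difference between the organs that was not tested. The log2 fold changes were 0.72 in liver and -0.58 in ileum for Ccl25, 0.70 and -0.29 for Nfix, a transcription factor, and 1.03 and -0.42 for Usp37.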

How the results depend on the processing

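The tables list no gene near the limit on direction, so leaving out 1 library or rescaling could hardly change which genes were taken. The number of genes taken by the rule was 87 in liver and 73 in ileum with any 1 library left out and under trimmed mean scaling. It was 159 and 129 with a length of at least 6000 bases, 45 and 39 with at least 8000, 699 and 574 after removal of the length trend, and 628 and 513 after removal of the main transcript length trend. The number called lower by edgeR in the organ that chose the gene, 30 in liver and 33 in ileum, was 82 and 70 with the length trend removed, 48 and 32 with the main transcript trend removed, 33 and 16 with the authors' size factors, 51 and 49 with DESeq2, 35 and 41 without the filter, and 74 and 68 adjusted over the listed genes alone. With 1 library left out it ranged from 0 to 68 in liver and from 3 to 61 in ileum.

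For liver genes called lower in ileum (18), the same settings gave 33, 13, 7, 25, 23 and 33, and left-out libraries 2 to 28. For ileum genes called lower in liver (13) they gave 31, 18, 14, 21, 16 and 28, and left-out libraries 0 to 26. The counts of genes lower in the other organs (33, 32, 15 and 14) were the same with any 1 library left out, which the listing of genes made likely. With the replicate block these 4 counts of calls were 17 and 10 in the choosing organ and 5 and 9 in the other. Same-numbered libraries correlated between -0.12 and 0.10 in liver and between -0.19 and 0.02 in ileum, and 2 of 4 and 0 of 4 correlated best with their own number, so the numbers were not taken to pair them.

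With the main transcript trend removed, 8 of the 87 fold changes in liver and 9 of the 73 in ileum were above 0, among them Echs1 in both organs. Of the genes described by rule these were Mpc2 at 0.18 in liver and 0.022 in ileum, Bcl7c at 0.10 in ileum and Akr1b3 at 0.11 in ileum. Of 770 values of named genes under 14 settings, 538 kept their side of the threshold and direction, 163 lost the call and 65 gained it. Why calls changed was not tested. Genes outside the tables have no value here, and at 4 libraries per group a gap between genotypes rests on few samples.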
